A study of Mus musculus with 9 samples.

Results

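In mouse bone marrow-derived dendritic cells exposed to lysophosphatidic acid (LPA), 106 protein-coding genes were at no more than 50% of their untreated level at 6 h while they lay between 77% and 130% of it at 2 h. They were picked from the measured values themselves: counts of each library were scaled to a common library total (CPM, counts per 1000000), the 3 libraries of a group were averaged, and the untreated mean had to reach 2 CPM. The 106 genes were 1.01% of the 10470 protein-coding genes at that floor. In all, 299 genes at the floor were at or under 50% of untreated at 6 h. Of these, 106 lay in the 2 h window, 190 were already under 77% at 2 h and 3 were over 130%. All 9 libraries took part in the choice, so every value at 2 h and at 6 h given for these genes describes how they were chosen, and no test on those values is used as support.

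The cells were untreated (3 libraries), or had received LPA for 2 h (3 libraries) or for 6 h (3 libraries). Bone marrow precursors cultured in this way give cells that take up and present antigen, and such cultures also hold macrophage-like cells. The labels give no mouse strain, age or sex, no LPA concentration, no vehicle and no time in culture for the untreated cells, and the title of the series places the work in the study of how tumor-made LPA affects type I interferon in ovarian cancer. Whether replicates are separate animals, cultures or aliquots is not in the labels, and a p-value here measures only the spread between these libraries, which may be technical. RNA was measured in bulk: fewer cells of one type and less RNA of a gene per cell cannot be told apart. Totals ran from 29628817 to 84596899 counts per library, and the lowest count of any of the 106 genes in any 6 h library was 7.

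LPA is a phospholipid that signals through G protein-coupled receptors. Type I interferons act through a receptor present on most cells, whose signal assembles a complex of STAT proteins with IRF9 on interferon-stimulated response elements, and resting myeloid cells keep a low level of many such genes through tonic interferon. Dendritic cells use such genes to sense viral nucleic acid, to restrict pathogens and to present antigen.

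The name "lowered only at 6 h" fits the 6 h libraries and is less exact for 2 h. At 6 h the group mean ran from 16.6% to 49.98% of untreated, with a median of 39.2% and quartiles of 33.5% and 45.7%. At 2 h it ran from 77.2% to 124% with a median of 86.2%, and 98 of the 106 means were under the untreated mean. Of the 2 h means, 73 were under 90% of untreated, 32 lay between 90% and 110%, and only that of Dck was above. The genes are therefore better described as slightly lower than untreated or near it at 2 h and much lower at 6 h. As a description beside the choice, the quasi-likelihood test of edgeR, with p-values adjusted over 14363 rows by the Benjamini-Hochberg method, called all 106 lower at 6 h against untreated, where 25.7% of all rows were called lower (52% in either direction), and all 106 lower at 6 h against 2 h, where 24.4% of rows were. At 2 h against untreated it called 17 of the 106 lower, where 19.2% of all rows were called lower, and 0 higher, where 19.3% were. With a replicate block in the model the 17 became 31, while DESeq2 called 23 lower and 1 higher. Over all rows, 2757 were called lower in the main fit and 3073 with the block, while DESeq2 called 2709 lower and 2583 higher. The 89 genes not called at 2 h are not thereby shown to be unchanged.

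The 17 genes called lower at 2 h had log2 fold changes between those of Mvk, at -0.36 (SE 0.07), and Lpl, at -0.22 (SE 0.07). Besides these they were Oas1a, Dhx58, Phf11b, Pilra, Clec4a3, Mag, Cd200r3, Cdh1, Scimp, Lrmp, St3gal5, Alox5, Ctps, Ass1 and Me1. By role they were 7 of 19 metabolic, 4 of 18 receptor, 3 of 17 interferon-linked, 2 of 12 signalling and 1 of 14 adhesion genes. The 8 genes whose 2 h mean was at or above the untreated mean were Dck, Dscam, Clec4e, Treml4, F2rl2, Adgre4, Casp4 and Afp. For 6 of the 106 genes no 2 h library was under all untreated libraries, for 24 genes 1 library was, for 47 genes 2 were and for 29 genes all 3 were.

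**Figure D1:**
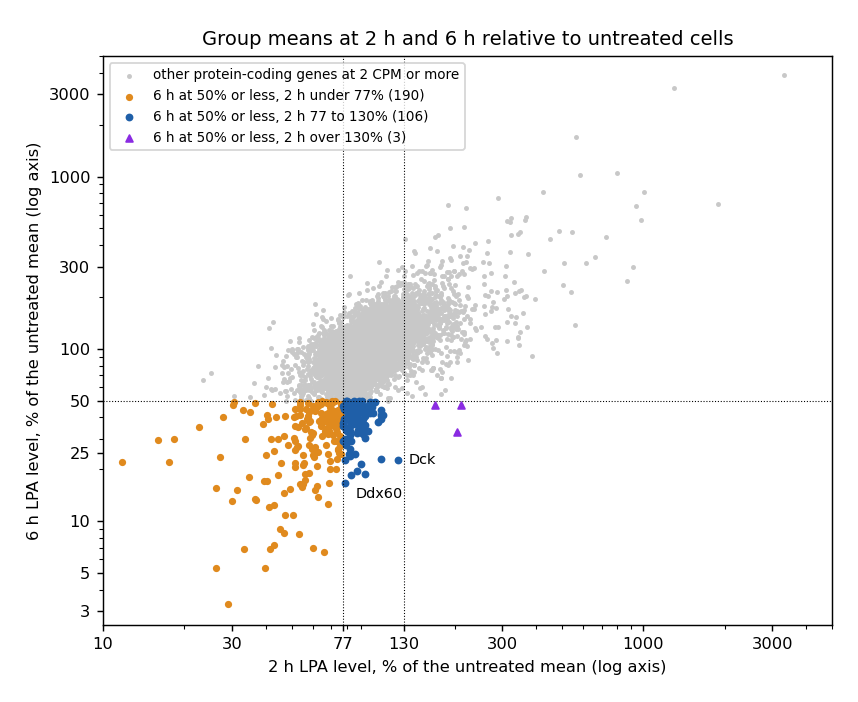
Group means of the 10470 protein-coding genes with at least 2 CPM in untreated cells, as a percentage of the untreated mean, at 2 h (x, log axis) and 6 h (y, log axis). Dotted lines mark 77%, 130% and 50%. The 106 blue genes lie in the window that chose them, most of them in its left part, beside 190 orange genes that were already under 77% at 2 h and 3 purple genes that were over 130%.

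One library stood apart for these genes. Over all rows, the chi-square per degree of freedom between counts of replicate 2 at 2 h and the other 2 h libraries was 23.3 and 33.4, against 14.6 between those other libraries and 7.44 to 13.2 within the other groups. This measure allows for library totals but grows with depth where libraries differ. Replicate 2 at 2 h had the most counts of all, 84596899, so its larger values cannot be told apart from depth. Replicate 2 at 2 h was the lowest of the 3 libraries of its group for 97 of the 106 genes and the highest for 0. This was counted for the 106 genes only, so no share over all rows stands beside it. The median gene was at 90.4% of its untreated mean in replicate 1 at 2 h, at 74.0% in replicate 2 and at 95.7% in replicate 3, whereas the median of all 14363 rows was at 98.2%, 101% and 97.2% in the same 3 libraries. The 6 h libraries were alike, with medians of 37.96%, 40.1% and 39.0% for the 106 genes. Without replicate 2 at 2 h the median 2 h level of the 106 genes was 92.8%, 82 of the 106 means were under the untreated mean, and 105 of the 106 still met the window. Dck then left it at 137% of untreated, and 33 other genes entered, which brought the number to 138. Counts called at 2 h moved with single libraries too: 9 lower and 2 higher without replicate 2 at 2 h, 39 lower without replicate 3 at 2 h, and 6 to 11 lower without any 1 of the untreated libraries. Over all rows, the same fits called 2849 lower and 2731 higher, 2713 lower, and 2134 to 2306 lower.

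**Figure D2:**
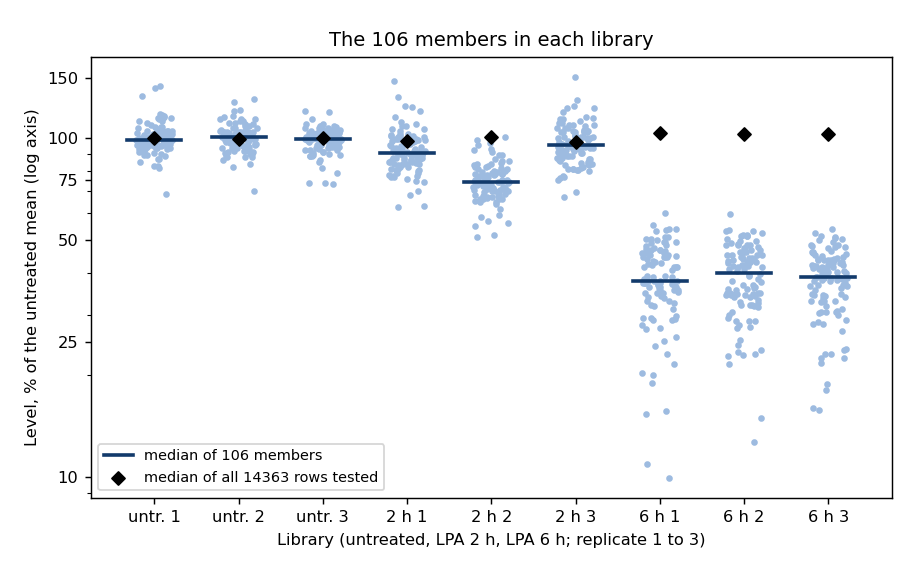
Level of each of the 106 genes (points) in each of the 9 libraries, as a percentage of its untreated mean (log axis), with the median of the 106 genes (bar) and the median of all 14363 rows tested (diamond). Replicate 2 at 2 h, with a median of 74.0%, lies under the other 2 h libraries, and the 6 h libraries lie at 37.96% to 40.1%.

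Together the 106 genes held 13969.6 ± 182 CPM in untreated cells, 12137 ± 1397 CPM at 2 h and 5838 ± 127 CPM at 6 h (SD, n = 3 each). A large part of this was Lpl alone, and without it the sums were 8536 ± 168, 7518 ± 934 and 3501 ± 70.7 CPM. In untreated cells the genes ranged from 2.08 to 5434 CPM with a median of 20.3 CPM. There were 23 genes under 5 CPM and 22 at 100 CPM or more. The SD of the 3 libraries was, in the median gene, 6.96% of the mean in untreated cells, 14.2% at 2 h and 8.57% at 6 h. All 3 libraries at 6 h lay below all 3 untreated libraries and below all 3 libraries at 2 h for all 106 genes, as they did for 27% and 24.6% of all rows tested (34.2% lay wholly above 2 h), and the choice itself favours this. At 2 h, 29 genes had all 3 libraries below all untreated ones, as did 25.2% of all rows, and for the other 77 the libraries of 2 h and of untreated cells overlapped.

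**Figure D3:**
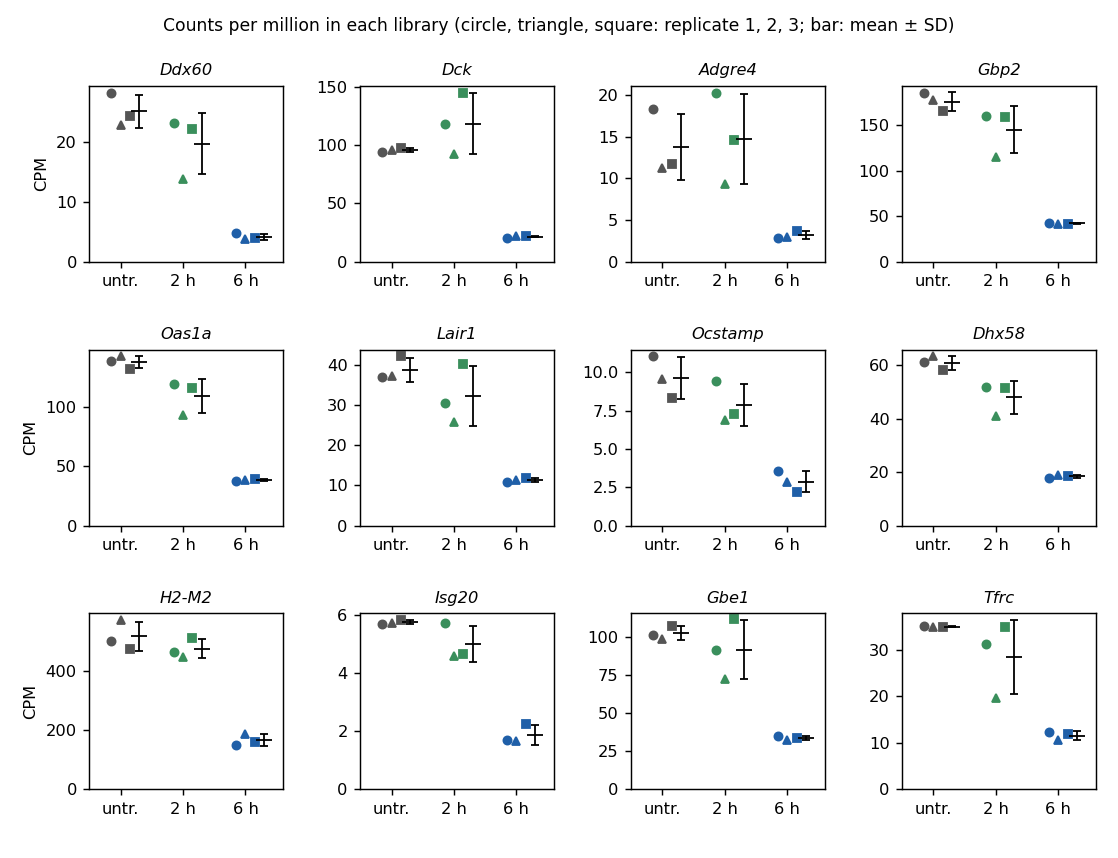
CPM in each of the 9 libraries of the 12 genes with the lowest 6 h level relative to untreated among those with at least 5 CPM in untreated cells (circle, triangle and square are replicates 1, 2 and 3; the black bar is the mean ± SD of 3 libraries). The 6 h libraries lie under all others in every panel, and the triangle at 2 h, replicate 2, is the lowest 2 h library in all 12.

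Linked to interferon were 17 of the 106 genes, with a median level of 84.5% of untreated at 2 h and 36.7% at 6 h. Ddx60, an RNA helicase that aids RIG-I-like receptors, had the lowest 6 h level of all 106 genes. Its level was 28.2, 22.9 and 24.3 CPM in untreated cells, 23.1, 13.9 and 22.2 CPM at 2 h and 4.76, 3.77 and 3.98 CPM at 6 h. Replicate 2 was the lowest 2 h library, replicate 1 lay within the untreated range, and the 6 h libraries were far under both groups. The 6 h mean was 16.6% of untreated, a log2 fold change of -2.65 (SE 0.22). Gbp2, a guanylate-binding GTPase that acts on vacuoles of intracellular pathogens, was at 185, 178 and 165 CPM in untreated cells, 160.3, 115 and 159 CPM at 2 h and 42.9, 41.2 and 41.9 CPM at 6 h. Here all 2 h libraries were already under the untreated ones, by little in replicates 1 and 3, and the 6 h libraries lay close together at 23.9% of untreated.

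Sensors and effectors of the antiviral response followed. Oas1a, an oligoadenylate synthetase that feeds RNase L, was at 139, 143 and 133 CPM in untreated cells, 119, 93.1 and 116 CPM at 2 h and 37.9, 38.3 and 39 CPM at 6 h. Dhx58, which encodes the RIG-I-like receptor LGP2, was at 61.2, 63.4 and 58.2 CPM in untreated cells, 51.7, 41 and 51.4 CPM at 2 h and 17.7, 18.8 and 18.7 CPM at 6 h. In both genes the 3 groups were fully separated, with replicate 2 lowest at 2 h, and the 6 h means were 27.8% and 30.2% of untreated. Isg20, an RNA exonuclease, was at 5.69, 5.75 and 5.85 CPM in untreated cells, 5.72, 4.61 and 4.68 CPM at 2 h and 1.69, 1.66 and 2.25 CPM at 6 h. Replicate 1 at 2 h sat inside the untreated range and the other 2 h libraries under it. Irf7, the transcription factor that amplifies type I interferon production, was at 88.1, 84.9 and 79.2 CPM in untreated cells, 77.8, 57.6 and 68.8 CPM at 2 h and 35, 29.2 and 34.9 CPM at 6 h, again with 3 separate groups and a 6 h mean of 39.3%.

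Lgals9, which encodes a secreted galectin, was at 154, 150.5 and 147 CPM in untreated cells, 149.6, 119 and 143 CPM at 2 h and 72.9, 74 and 77.6 CPM at 6 h, so that it only just met the 6 h limit with 49.7%. Replicate 1 at 2 h was in the untreated range and the other 2 h libraries under it. Cxcl9, a chemokine for CXCR3-bearing T cells, was low throughout at 2.55, 2.05 and 2.14 CPM in untreated cells, 2.28, 1.58 and 2.27 CPM at 2 h and 0.743, 0.777 and 0.872 CPM at 6 h. Replicates 1 and 3 at 2 h lay inside the untreated range. Casp4, an inflammatory caspase that senses lipopolysaccharide in the cytosol, was at 13.8, 14.3 and 13.8 CPM in untreated cells, 14.9, 12.9 and 15.7 CPM at 2 h and 6.08, 4.59 and 4.98 CPM at 6 h. Its 2 h libraries lay on both sides of the untreated ones, and its 6 h mean was 37.4%. The remaining interferon-linked genes were Ifi205 (22.7% at 6 h), Oasl1 (33.2%), Epsti1 (36.7%), Phf11b (36.9%), Rsad2 (38%), Ube2l6 (41.4%), Ly6a (44.5%) and Nmi (48.3%). Rsad2 encodes the antiviral enzyme viperin and Ube2l6 the conjugating enzyme for ISG15. Oas1a, Gbp2, Ifi205, Phf11b and Ly6a have close paralogs, among which the authors' estimated counts divide shared reads, so their values are less certain.

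Promoter sequence was not used in the choice. A window from 250 bases before to 50 bases after the gene start, from RefSeq on GRCm38.p6, was found by symbol for 81 of the 106 genes, and 1 or more windows of a gene were searched. The core of the interferon-stimulated response element, written GAAANNGAAA and searched on both strands, was present in a window of 11 of the 81 genes (13.6%), against 3.995% of the 8410 protein-coding genes at the 2 CPM floor that had a window and 3.99% of all 27025 genes in the sequence table. Some genes have several start sites and so several windows, 1.296 per gene among the 81 and 1.283 at the floor. Counted by window, the match was in 11 of 105 (10.48%), against 3.26% of 10791 at the floor. It was in 7 of the 15 interferon-linked genes with a window and in 4 of the other 66 genes (6.06%), and in 38 of 140 genes already under 77% at 2 h (27.1%). These shares are descriptions, and a match is not a bound site. The 4 windows shown are those of the interferon-linked genes with a match that had the lowest 6 h levels: Ddx60 at chr8:61927837-61928136 on the + strand, Ifi205 at chr1:174031706-174032005 on the - strand, Gbp2 at chr3:142620413-142620712 on the + strand and Oas1a at chr5:120907476-120907775 on the - strand. Each is written in the direction of its gene, with matches in capitals.
Ddx60: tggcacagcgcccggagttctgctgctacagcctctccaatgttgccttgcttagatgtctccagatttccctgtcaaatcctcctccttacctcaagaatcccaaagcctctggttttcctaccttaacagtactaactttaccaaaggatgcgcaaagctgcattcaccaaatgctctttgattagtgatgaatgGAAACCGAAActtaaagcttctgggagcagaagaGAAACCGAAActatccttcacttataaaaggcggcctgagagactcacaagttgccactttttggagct
Ifi205: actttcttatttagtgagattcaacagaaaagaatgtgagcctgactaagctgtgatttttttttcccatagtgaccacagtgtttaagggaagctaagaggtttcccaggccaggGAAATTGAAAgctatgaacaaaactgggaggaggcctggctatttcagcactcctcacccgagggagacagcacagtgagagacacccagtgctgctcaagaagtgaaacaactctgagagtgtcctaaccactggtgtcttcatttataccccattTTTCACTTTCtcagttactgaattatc
Gbp2: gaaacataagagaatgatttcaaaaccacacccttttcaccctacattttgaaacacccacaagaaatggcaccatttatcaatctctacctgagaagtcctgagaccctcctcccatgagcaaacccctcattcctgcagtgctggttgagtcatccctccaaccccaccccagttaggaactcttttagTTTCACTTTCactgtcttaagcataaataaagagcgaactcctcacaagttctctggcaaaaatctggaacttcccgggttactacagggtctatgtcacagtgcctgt
Oas1a: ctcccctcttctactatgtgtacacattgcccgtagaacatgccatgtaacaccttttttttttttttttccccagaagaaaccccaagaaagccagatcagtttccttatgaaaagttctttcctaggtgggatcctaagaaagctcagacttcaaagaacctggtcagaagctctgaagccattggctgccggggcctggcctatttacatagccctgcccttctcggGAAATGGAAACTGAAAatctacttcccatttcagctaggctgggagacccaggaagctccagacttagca
In Ddx60 the 2 matches have the same letters and the first is at position -53 from the gene start. The match of Gbp2 is on the opposite strand and that of Oas1a is a run of overlapping matches from position -20. Other matches among the 106 genes were in Aif1, Ldlrad3, Lgals9, Mmp13, Phf11b, Pilra and Rsad2. The genes at the floor give the background for 9 further motifs, searched the same way and given as shares of genes. The gamma-activated site TTCNNNGAA, bound by STAT dimers, was in 9.88% of the 81 genes (8 genes), against 8.20% of the genes at the floor. For the motif of PU.1, GAGGAAGT, the shares were 8.64% (7 genes) against 4.19%, and for that of AP-1, TGACTCA or TGAGTCA, 8.64% (7 genes) against 4.49%. The antioxidant response element of NRF2, TGACNNNGC or TGAGNNNGC, was in 40.7% against 35.9%, and the CCAAT box in 42.0% against 43.1%. Lower shares than at the floor were found for the cAMP response element TGACGTCA, at 1.23% (1 gene) against 3.75%, and for the NF-kappaB motif GGGNNTTTCC, at 1.23% (1 gene) against 2.07%. The xenobiotic response element TGCGTG was at 11.1% (9 genes) against 14.6%, and the E-box CACGTG at 8.64% (7 genes) against 12.3%. Counts this small leave the differences from the floor uncertain in either direction.

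The interferon-stimulated list, of which 84 genes were tested, shows where the chosen genes sit in that response. At 6 h, 78 of the 84 fell and 2 rose (Trim25 and Shisa5), where 25.7% of all rows were called lower and 26.4% higher. The median log2 fold change was -1.63, beside 0.01 over all rows tested. At 2 h, 62 of the 84 fell and 1 rose, where 19.2% of all rows were called lower and 19.3% higher. The median at 2 h was -0.55, and the median of all rows was 0.00 to 2 decimals. Of the listed genes, 13 belonged to the 106 and 46 had been under 77% at 2 h already. Among those 46, Ifit1 averaged 44.8 ± 2.10 CPM in untreated cells, 14.9 ± 3.28 CPM at 2 h and 3.07 ± 0.387 CPM at 6 h (SD, n = 3 each). Ddx60 by contrast was still at 78.5% of untreated at 2 h. The list was drawn up with results of these data known, and the split between 13 and 46 is set by the 77% limit. When replicate 2 at 2 h was left out, Oas3, Ifi204, Gbp3, Sp100, Irf9 and Eif2ak2 of the 46 entered the 2 h window.

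**Figure D4:**
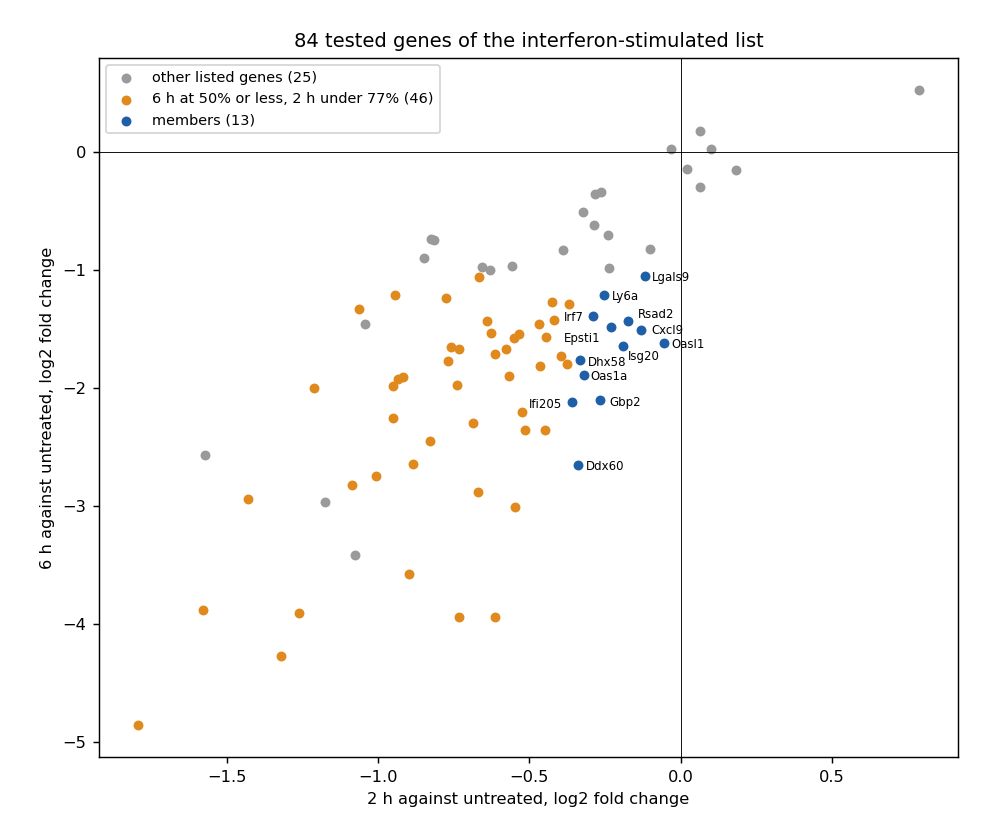
Log2 fold changes at 2 h (x) and 6 h (y) against untreated, from edgeR, of the 84 tested genes of the interferon-stimulated list. The 13 genes of the chosen set (blue, named) lie right of the 46 genes that were under 77% of untreated at 2 h (orange), and the 25 grey genes met neither description because their 6 h level was over 50%, their untreated level was under 2 CPM or they had no single protein-coding row.

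Antigen presentation and T-cell help were represented by 5 genes, with medians of 88.9% of untreated at 2 h and 36.4% at 6 h. H2-M2, a nonclassical MHC class I gene, was the third highest of the 106 genes in untreated CPM per kb of transcript, with 502, 573 and 476 CPM in untreated cells, 465, 449 and 510.0 CPM at 2 h and 150.5, 188 and 159 CPM at 6 h. The 2 h libraries overlapped the untreated ones, and the 6 h mean was 32.1% of untreated, a log2 fold change of -1.68 (SE 0.10). Tnfsf4, which encodes OX40 ligand, a costimulator of T cells, was at 55, 61.7 and 60.8 CPM in untreated cells, 49.3, 44.2 and 62.3 CPM at 2 h and 21.1, 20.2 and 19 CPM at 6 h. Its 2 h libraries ran from below to just above the untreated range. H2-Eb2, a class II beta-chain gene, was at 10.9, 12.4 and 12.6 CPM in untreated cells, 10.1, 9.13 and 11.9 CPM at 2 h and 3.51, 4.99 and 4.54 CPM at 6 h, with replicate 3 at 2 h in the untreated range and the other 2 h libraries under it. H2-DMb1, a subunit of the chaperone that loads peptide on class II, was at 126, 121 and 113 CPM in untreated cells, 130.1, 98.9 and 114 CPM at 2 h and 54.4, 58.1 and 54.3 CPM at 6 h. The 2 h libraries of H2-DMb1 spread around the untreated ones. Psme2, a subunit of the proteasome activator PA28, was at 197, 209 and 195 CPM in untreated cells, 179, 164 and 191 CPM at 2 h and 94.4, 104 and 101 CPM at 6 h, with all 2 h libraries under all untreated ones by a small margin.

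The wider lists of antigen presentation hold some of the genes above. The MHC class II and costimulation list, with H2-Eb2, H2-DMb1 and Tnfsf4 in it, had 12 falls and 5 rises at 6 h among 23 tested genes. Its median log2 fold change was -0.26. The MHC class I list, with Psme2 in it, had 18 falls and 1 rise among 24, and its median was -0.32. Over all rows, 25.7% were called lower at 6 h and 26.4% higher. Summed CPM of the class II list was 10677 to 11863 in untreated libraries, 11273 to 12320 at 2 h and 10961 to 11854 at 6 h, so the groups overlapped. Besides the H2-DMb1 row, a row whose transcripts belong to both H2-DMb2 and H2-DMb1 met the same limits with 32.1% at 6 h. It was left out because it names no single gene, as was a row of Gcat and Galr3 at 38.1%. Counts of these class II genes depend on how reads were shared between the copies.

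Surface receptors formed a set of 18 genes, with medians of 84.98% of untreated at 2 h and 40.3% at 6 h. Adgre4, an adhesion G protein-coupled receptor of myeloid cells, was at 18.3, 11.3 and 11.7 CPM in untreated cells, 20.2, 9.39 and 14.6 CPM at 2 h and 2.8, 2.98 and 3.73 CPM at 6 h. Replicate 1 stood high both in untreated cells and at 2 h, and the 6 h libraries were far under both groups, at 23% of untreated. Lair1, an inhibitory receptor for collagen, was at 37, 37.2 and 42.3 CPM in untreated cells, 30.6, 25.7 and 40.4 CPM at 2 h and 10.9, 11.2 and 11.9 CPM at 6 h. Replicate 3 at 2 h was inside the untreated range and replicates 1 and 2 under it. Msr1, the class A scavenger receptor, had the most counts of this set, with 442, 452 and 468 CPM in untreated cells, 381, 337 and 438 CPM at 2 h and 216, 238 and 220.4 CPM at 6 h, with 3 separate groups and a 6 h mean of 49.5%. Treml4, a receptor that binds dead cells, was at 6.01, 7.87 and 6.83 CPM in untreated cells, 7.27, 6.4 and 8.5 CPM at 2 h and 2.36, 3.13 and 3.08 CPM at 6 h. Its 2 h libraries were within or above the untreated range.

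C-type lectins bind glycans and other ligands, and 4 of the 16 genes counted here as such at the 2 CPM floor were among the 106, or 25%, beside 1.01% of all genes, a count read after the genes were known. All 4 have Clec symbols, and Cd69, described below, was not counted. Clec4e encodes Mincle, a receptor for mycobacterial glycolipids, and was at 187, 229 and 217 CPM in untreated cells, 208, 209 and 262 CPM at 2 h and 88.2, 99.9 and 92.2 CPM at 6 h. Replicate 3 at 2 h was the highest of all 9 libraries and the 6 h mean was 44.3% of untreated. Clec4a1 and Clec4a3 neighbour each other on chromosome 6 (122921848 to 122934619 and 122952515 to 122969875, both on the + strand of GRCm38). Clec4a1 was at 6.87, 5.66 and 5.24 CPM in untreated cells, 6.45, 3.52 and 5.15 CPM at 2 h and 2.77, 2.13 and 1.82 CPM at 6 h. Clec4a3 was at 31, 26.1 and 26.7 CPM in untreated cells, 21.6, 18.4 and 24.7 CPM at 2 h and 9.96, 10.3 and 9.55 CPM at 6 h. Clec4a3 had all 2 h libraries under all untreated ones and Clec4a1 did not, and as close paralogs they may share reads. The other pair within 100 kb, also on chromosome 6, was Cd69 (129267325 to 129275436, - strand), an early activation antigen, and Clec12a (129342691 to 129365303, + strand), an inhibitory receptor for uric acid crystals. Cd69 was at 4.22, 4.67 and 4.65 CPM in untreated cells, 2.85, 3.13 and 4.55 CPM at 2 h and 1.35, 1.74 and 1.71 CPM at 6 h. Clec12a was at 18.4, 14 and 15.6 CPM in untreated cells, 14.6, 10.6 and 14.5 CPM at 2 h and 5.84, 5.55 and 5.92 CPM at 6 h. In Cd69 replicate 3 at 2 h was in the untreated range, and in Clec12a only replicate 2 was under it. The remaining receptors were Pilra (33.2% of untreated at 6 h), Slamf9 (37.6%), F2rl2 (39.2%), Slamf6 (41.9%), Cd38 (42.5%), Fcrl1 (43.2%), Ptpro (43.7%), Mag (44.1%) and Cd200r3 (46.2%).

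Adhesion, matrix and protease genes numbered 14, with medians of 85.2% at 2 h and 41.6% at 6 h. Mmp13, a collagenase, was at 404, 457 and 438 CPM in untreated cells, 362, 352 and 425 CPM at 2 h and 214, 230.0 and 189 CPM at 6 h. Replicate 3 at 2 h was in the untreated range, and the 6 h mean was 48.7% of untreated. Mmp9, a gelatinase, was at 47.7, 55.9 and 55.9 CPM in untreated cells, 44.4, 40.9 and 59 CPM at 2 h and 19.6, 27.3 and 28.6 CPM at 6 h, with 1 library at 2 h above the untreated range and the others under it. Mamdc2, an extracellular proteoglycan, was nearest to the 6 h limit at 228, 186 and 219.9 CPM in untreated cells, 181, 135 and 189 CPM at 2 h and 113, 97.2 and 107 CPM at 6 h, and replicate 3 at 2 h was in the untreated range. Ocstamp, which is needed for fusion of osteoclast precursors, was at 11, 9.55 and 8.32 CPM in untreated cells, 9.41, 6.88 and 7.25 CPM at 2 h and 3.58, 2.85 and 2.17 CPM at 6 h, with replicate 1 at 2 h in the untreated range and a 6 h mean of 29.8%. F13a1, the A subunit of coagulation factor XIII made by monocytes and macrophages, was at 4.55, 2.68 and 2.35 CPM in untreated cells, 4.21, 2.33 and 2.44 CPM at 2 h and 1.11, 0.758 and 1.05 CPM at 6 h. Replicate 1 of F13a1 was high in untreated cells and at 2 h alike. The other genes of the set were Itgae, the integrin chain known as CD103 on a subset of dendritic cells (18.7%), Serpinb12 (29%), Cdh1, which encodes E-cadherin (33.6%), Tpm2 (38.3%), Dscam (41.4%), C1rl (41.8%), Ccdc80 (46.6%), the collagen crosslinker Lox (46.6%) and Pcdh7 (49%). The wider list of integrins, adhesion and matrix, with Itgae, Mmp9, Mmp13 and F13a1 in it, had 21 falls and 10 rises at 6 h among 44 tested genes. Over all rows, 25.7% were called lower and 26.4% higher. The median log2 fold change of the list was -0.21.

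Metabolic and redox enzymes were the most numerous, 19 genes with medians of 87.2% at 2 h and 39.0% at 6 h, and 7 of the 19 were called lower at 2 h, where 19.2% of all rows were. Lpl, which encodes lipoprotein lipase, had the most counts of all 106 genes, with 5436, 5246 and 5620.0 CPM in untreated cells, 4362, 4278 and 5217 CPM at 2 h and 2328, 2398 and 2284 CPM at 6 h. Its 2 h libraries lay under all untreated ones and its 6 h libraries far under both, at 43% of untreated, a log2 fold change of -1.26 (SE 0.07). Ass1, the argininosuccinate synthase that regenerates arginine, was at 1570.1, 1699 and 1657 CPM in untreated cells, 1437, 1220.3 and 1519.6 CPM at 2 h and 734, 793 and 785 CPM at 6 h, with the same order of 3 separate groups and 46.9% at 6 h. Scaled by transcript length, Lpl stood at 1321 CPM per kb in untreated cells, 1122 at 2 h and 568 at 6 h, Ass1 at 968, 821 and 454, and the median of the 106 genes at 7.12 in untreated cells.

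Dck, the deoxycytidine kinase of nucleoside salvage, was the one gene over 110% of untreated at 2 h. Its level was 93.9, 96.1 and 97.1 CPM in untreated cells, 118, 92.7 and 145 CPM at 2 h and 20.7, 22 and 22.1 CPM at 6 h. Replicates 1 and 3 at 2 h were above all untreated libraries and replicate 2 just under them, so that the 2 h mean of 124% rested on 2 libraries, and the 6 h mean was 22.6% of untreated, a log2 fold change of -2.18 (SE 0.15). Nampt, the rate-limiting enzyme of NAD salvage, was at 450.2, 449.5 and 477 CPM in untreated cells, 395, 345 and 503 CPM at 2 h and 169, 161 and 159 CPM at 6 h. Gclm, the modifier subunit of the enzyme that starts glutathione synthesis, was at 389, 408 and 429.6 CPM in untreated cells, 353, 303 and 428 CPM at 2 h and 149, 136 and 128 CPM at 6 h. Gbe1, the glycogen branching enzyme, was at 102, 98.9 and 108 CPM in untreated cells, 91.6, 72.3 and 112 CPM at 2 h and 35, 32.6 and 34 CPM at 6 h. Nampt, Gclm and Gbe1 shared a pattern at 2 h, with replicate 3 within or above the untreated range and replicates 1 and 2 under it, and were at 35.5%, 33.6% and 33% at 6 h.

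Lipid enzymes included Alox5, the lipoxygenase that starts leukotriene synthesis, at 25.9, 24.1 and 27.7 CPM in untreated cells, 19.8, 18.1 and 22.5 CPM at 2 h and 11.8, 11.6 and 11.4 CPM at 6 h. Mvk, the mevalonate kinase of cholesterol synthesis, was at 24.6, 25.4 and 26 CPM in untreated cells, 19.4, 18.7 and 20.5 CPM at 2 h and 11.1, 12.8 and 11.5 CPM at 6 h. Both had all 2 h libraries under all untreated ones, and Mvk, at 77.2% of untreated at 2 h, was the gene closest to the lower edge of the window. Plpp1, a phosphatase that degrades LPA at the cell surface, was at 4.62, 5.09 and 4.19 CPM in untreated cells, 4.17, 3.58 and 4.36 CPM at 2 h and 1.65, 1.96 and 1.81 CPM at 6 h, with replicate 3 at 2 h in the untreated range and a 6 h mean of 39%. Exons of Plpp1 overlap those of Mtrex on the opposite strand. The list of cholesterol synthesis and uptake had 23 falls and 1 rise at 6 h among 24 tested genes, and its median log2 fold change was -0.57, yet Mvk alone of the list met the limits of the chosen set. In the LPA receptor and metabolism list 4 of 21 fell and 8 rose. Over all rows, 25.7% were called lower at 6 h and 26.4% higher, the shares to set beside both lists. The remaining enzymes were Fabp3 (24.6%), Adhfe1 (24.7%), Car2 (33.7%), Pcx (33.8%), St3gal5 (37.3%), Sod2 (39.1%), Phgdh (42.7%), Ctps (45.4%), Nxn (47.9%) and Me1 (48.6%).

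Transporters and channels numbered 9, with medians of 89.9% at 2 h and 40.7% at 6 h, and 0 of the 9 were called at 2 h, where 19.2% of all rows were called lower and 19.3% higher, a small number of genes to read against those shares. Tfrc, the transferrin receptor that takes up iron, was at 35.1, 34.9 and 35 CPM in untreated cells, 31.2, 19.6 and 34.9 CPM at 2 h and 12.3, 10.6 and 11.9 CPM at 6 h. Replicate 2 at 2 h was much lower than the other 2 h libraries, of which replicate 3 was at the untreated level. Abcc1, an exporter of leukotrienes and glutathione conjugates, was at 378, 421 and 412 CPM in untreated cells, 401, 322 and 407 CPM at 2 h and 169, 166 and 158 CPM at 6 h. Slc2a6, a hexose transporter of lysosomes, was at 162, 178 and 151 CPM in untreated cells, 153, 127 and 136 CPM at 2 h and 68.3, 76.4 and 66.2 CPM at 6 h. The 2 h libraries of Abcc1 and Slc2a6 overlapped the untreated ones, and the 6 h means were 40.7% and 43%. Kcnq1, a voltage-gated potassium channel, was at 4.45, 6.38 and 3.86 CPM in untreated cells, 4.82, 4.1 and 4.28 CPM at 2 h and 0.979, 1.24 and 0.92 CPM at 6 h, with all 2 h libraries inside the untreated range, but its exons overlap the antisense transcript Kcnq1ot1. Itpr1, the calcium channel opened by inositol trisphosphate, was at 47.7, 45.3 and 45.8 CPM in untreated cells, 44.4, 34.4 and 44.4 CPM at 2 h and 21.2, 19.9 and 19.8 CPM at 6 h, with all 2 h libraries under all untreated ones. The others were Slc6a20a (26.3%), Slc7a5 (33.1%), Abcb1b (44.7%) and Mcoln2 (45.8%).

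Signalling and transcription held 12 genes, with medians of 82.8% at 2 h and 40.7% at 6 h. Prkar2b, a regulatory subunit of cAMP-dependent protein kinase, was at 59.7, 57 and 61.7 CPM in untreated cells, 59, 49.2 and 67.7 CPM at 2 h and 29.4, 25.9 and 26.4 CPM at 6 h, and Mef2c, a transcription factor of myeloid cells, was at 12.4, 11.3 and 13.4 CPM in untreated cells, 11.3, 8.72 and 13.2 CPM at 2 h and 6.68, 5.99 and 5.55 CPM at 6 h. In both, replicate 2 was the lowest 2 h library and another 2 h library was within or above the untreated range. The others were Ipcef1 (18.5% at 6 h), the aryl hydrocarbon receptor gene Ahr (33.4%), Chn2 (36.3%), Fyb (39.1%), Scimp (39.2%), Spata13 (40.6%), Aif1 (40.9%), Pid1 (46.1%), Ptp4a3 (47.3%) and Lrmp (48.3%). The cytokines Il33 and Il1f9, both of the IL1 family, were at 19.5% and 42.6% at 6 h. The last 10 genes were grouped as cell cycle, ribosome and other, with a median of 45.7% at 6 h: Kif26b (31.7%), Ldlrad3 (34.1%), BC035044 (38.1%), Mrps28 (42.7%), Calr3 (45.4%), Tma16 (46%), Dtl (47.5%), Fam124a (49%), Afp (49%) and Kntc1 (49.8%). No gene of the mitosis list or of the DNA replication list was among the 106. Those lists do not hold Dtl and Kntc1, so this does not show that the 106 lack cell cycle genes. Of the listed genes tested, 36 of 57 and 30 of 53 fell at 6 h, where 25.7% of all rows were called lower. Their medians were -0.37 and -0.23 on the log2 scale.

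**Figure D5:**
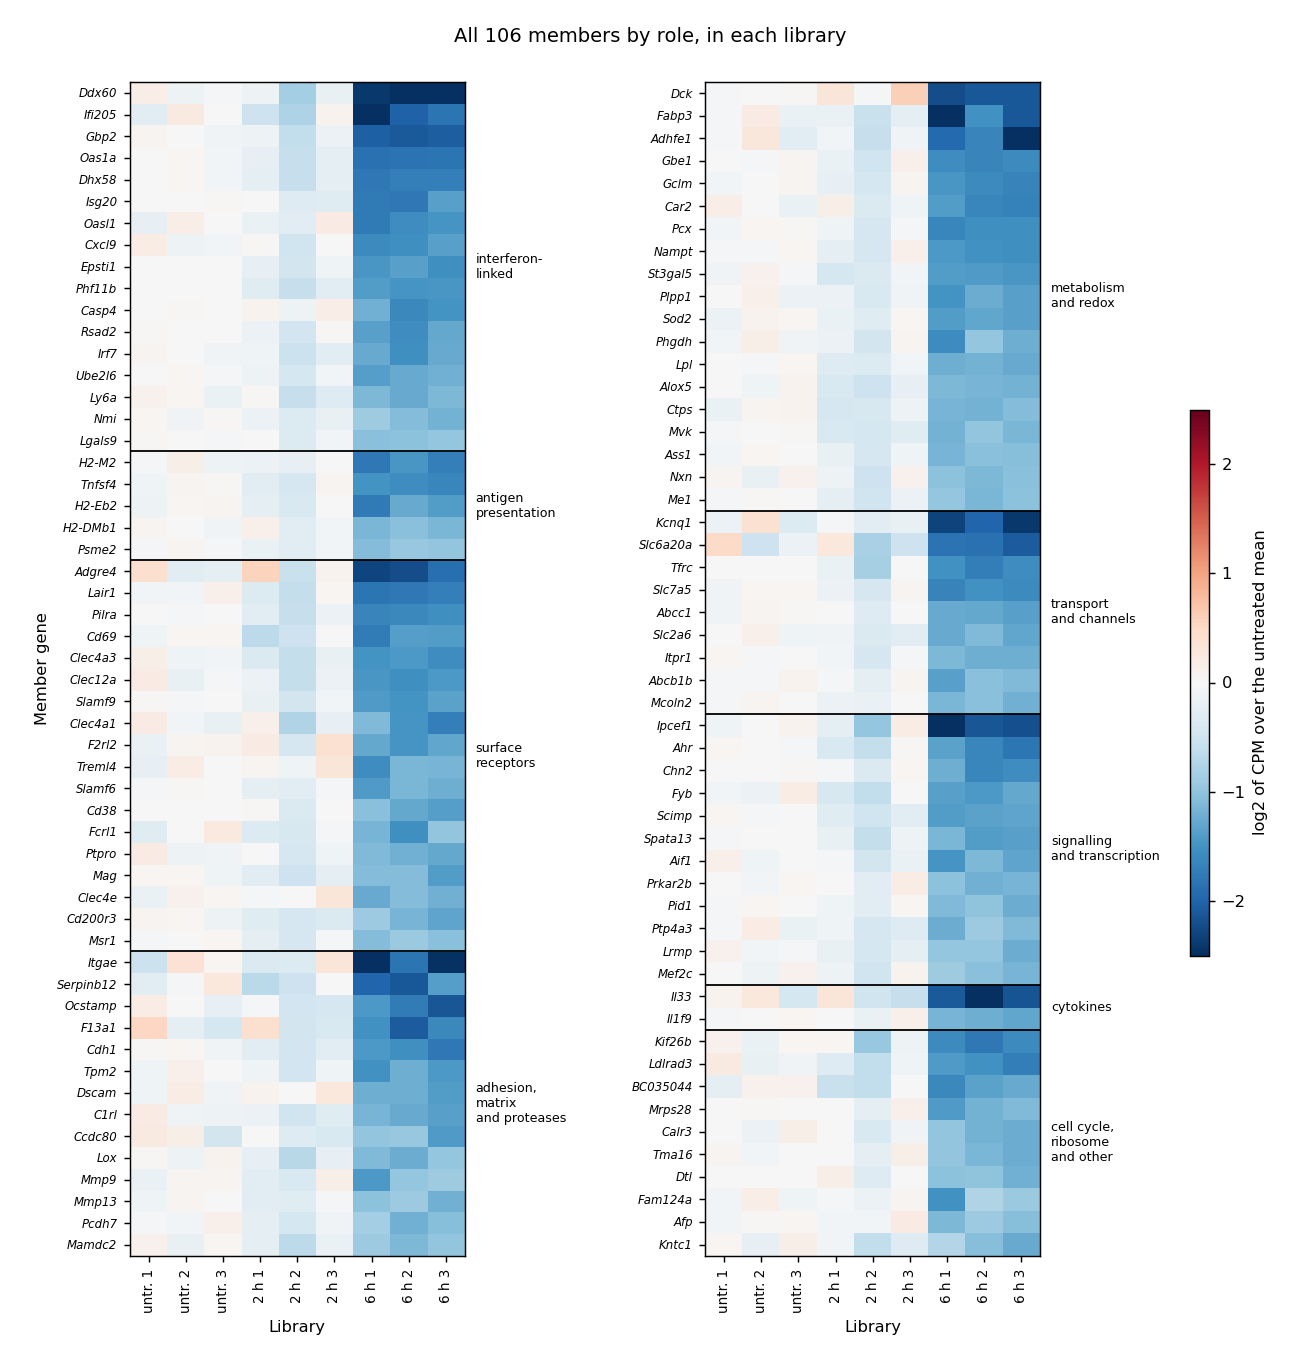
Log2 of CPM over the untreated mean for all 106 genes (down) in the 9 libraries (across: untreated, 2 h and 6 h, replicates 1 to 3), grouped by role and ordered by the 6 h level. Colours end at -2.5 and 2.5, and lower values take the end colour. The 6 h columns are blue in every role, and at 2 h the column of replicate 2 is the bluest.

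Values of the genes next to each limit follow. At the 6 h limit Mamdc2 (49.98%), Kntc1 (49.8%) and Psme2 (49.7%) were just inside, and Gsta3 (50.06%) and Trip13 (50.06%) just outside. At the lower 2 h edge Mvk (77.2%), Clec4a3 (77.3%) and Phf11b (77.3%) were inside, and Aldh1a2 (76.9%), Tmem178 (76.8%) and Nrp2 (76.8%) outside. Both limits thus pass through closely spaced values. The upper 2 h edge was nearly empty: after Dck (124%) came Dscam (109%) and Clec4e (107%), and beyond it only Cxcl2 (170%), Cxcl3 (204%) and Epha4 (212%) were at or under 50% at 6 h. At the floor Slc6a20a (2.08 CPM), Adhfe1 (2.08 CPM) and Calr3 (2.15 CPM) were inside, and Asgr2 (1.88 CPM), Pde1c (1.77 CPM) and Cxcl5 (1.64 CPM) outside.

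To see the pattern in libraries that had no part in the choice, the limits were applied to 2 replicate numbers and the genes read in the third. Leaving out replicate 1 of each group gave 98 genes, and in those 3 libraries 98 of the 98 were lower at 6 h than untreated, 79 were at or under 50%, 89 were inside the 2 h window and 72 met both. Leaving out replicate 3 gave 75 genes, of which 73 were lower at 6 h, 64 at or under 50%, 71 inside the 2 h window and 62 met both. Leaving out replicate 2 gave 148 genes, of which 147 were lower at 6 h and 124 at or under 50%, but 45 were inside the 2 h window, 103 were under it and 29 met both. Replicate 2 was the library in which most of the chosen genes were under the window at 2 h. The median 2 h level in the held-out library was 91.0% for replicate 1, 72.4% for replicate 2 and 99.9% for replicate 3, while the median 6 h level was 40.6%, 39.5% and 40.9%. The low 6 h level recurred for most genes in each held-out set. The highest 6 h level of a gene there was 62.7%, 537% and 153% of untreated in replicates 1, 2 and 3. The near-untreated 2 h level recurred in replicates 1 and 3 and for fewer genes in replicate 2. Replicates may be technical or paired by number, so the held-out libraries are not shown to be independent. Shares over all genes were not computed for these counts, which are descriptions only.

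The 106 genes lay on 19 chromosomes, and the 2 pairs named on chromosome 6 were the only ones within 100 kb. The longest coding transcripts had a median of 2689 bases, 9 exons and 47.5% GC, beside 3098 bases, 7.5 exons and 47.5% for the 190 genes already lower at 2 h and 3134 bases, 9 exons and 49.9% for all protein-coding genes at the floor. The mRNA-destabilising pentamer ATTTA was present in the 3′ untranslated region of 67.9% of the 106 genes, of 74.6% of the 190 genes and of 70.1% of all. Exons of 25 of the 106 genes overlap a gene on the opposite strand, 8 of them a protein-coding one, and the libraries were not stranded, so reads of the partners cannot be told apart. Among the genes described, this touches Irf7 (with Phrf1), Dhx58 (with Dhx58os), Plpp1 (with Mtrex), Kcnq1 (with Kcnq1ot1), Pilra (with Zcwpw1), Fabp3 (with Zcchc17 and Gm10570), Gbp2 (with Mir6381), Gclm (with Gm17494), F13a1 (with Gm30489), Itpr1 (with Gm44040 and Gm44101) and Oasl1 (with Gm13822). The other 14 genes were Ipcef1, Adhfe1, Slc6a20a, Kif26b, Ahr, Chn2, Fyb, Dscam, Abcb1b, Lox, Lrmp, Me1, Fam124a and Pcdh7.

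Marker lists of the cell types such a culture can hold were measured beside the genes. Over all rows, 25.7% were called lower at 6 h and 26.4% higher, and each marker list has few genes to read against those shares. Of 10 dendritic cell markers 5 of the 9 tested fell at 6 h and 0 rose, and their summed CPM was 5402 to 6236 in untreated libraries, 5454 to 6087 at 2 h and 4968 to 5414 at 6 h. Itgax, Cd74 and H2-Ab1 were abundant in all groups, while Cd209a was near 0 in all. Of 10 macrophage and monocyte markers 4 fell and 4 rose, and their summed CPM was 3652 to 3661, 4454 to 4716 and 5027 to 5236 in the same order. Cd14, the lipopolysaccharide co-receptor, rose, with 105 ± 10.2 CPM in untreated cells, 843 ± 110.1 at 2 h and 1101 ± 31.9 at 6 h (SD, n = 3 each). By contrast, Fcgr1 and Ccr2 of the macrophage and monocyte list were already under 77% of untreated at 2 h. The median log2 fold change of that list was -0.02 at 2 h and at 6 h. Its higher sum is therefore not a general rise of its genes. B cell markers summed to 10.2 to 12.8, 6.66 to 10.9 and 1.94 to 2.22 CPM, nearly all of it Ighm, with Pax5 at or near 0. The B cell list was thus read almost wholly from a single gene. Markers of plasmacytoid dendritic cells summed to 367 to 395, 354 to 433 and 247 to 276 CPM, mostly the interferon-stimulated gene Bst2, with Siglech at or near 0. Osteoclast markers, which include Ocstamp and Mmp9 of the chosen set, summed to 1178 to 1211, 1186 to 1379 and 1586 to 1607 CPM, with 5 of 8 tested rising and 2 falling at 6 h. T cell markers summed to 564 to 599.7, 685 to 799 and 979 to 1011 CPM, nearly all of it Il7r, with Cd3g at 0 in all libraries. Stromal markers summed to 28.5 to 40.6 CPM, 22.7 to 38.4 CPM and 58.9 to 67.6 CPM, mostly Kdr, which rose at 6 h, while Col1a1, Col1a2 and Col3a1 were at or near 0. That sum was higher in all 6 h libraries than in any other. Sums of the eosinophil list (56.6 to 57.6, 56.6 to 59.8 and 46.7 to 51.9 CPM), the erythroid and megakaryocyte list (82.5 to 90.5, 91.8 to 99.6 and 76.7 to 80.2 CPM) and the natural killer cell list (1.03 to 1.39, 0.662 to 1.25 and 0.573 to 0.878 CPM) were lower in all 6 h libraries than in all untreated ones. The neutrophil list, at 6.03 to 7.84, 7.14 to 7.82 and 5.52 to 6.92 CPM, and the mast cell and basophil list, at 19.3 to 24.3, 23.2 to 23.8 and 22.7 to 24.5 CPM, overlapped between groups. A list of short, abundant mRNAs kept as a check of RNA quality summed to 9448 to 9696, 9722 to 10225 and 9065 to 9399 CPM. A second list, of RNAs retained in the nucleus, summed to 816 to 880 CPM in untreated libraries, 499 to 695 at 2 h and 662 to 754 at 6 h, so that both LPA groups were under all untreated libraries. Neat1 and Snhg11 fell at both times, and Malat1 was at 415 ± 29.98 CPM in untreated cells, 435 ± 64.2 CPM at 2 h and 436 ± 45.5 CPM at 6 h (SD, n = 3 each). The part of cell composition and RNA quality in the lower levels of the 106 genes was not tested.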

How the data were processed

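RNA of 9 libraries was sequenced from a non-stranded protocol, per the labels' protocols. Estimated counts, 1 column per library, are in 1 table that the authors deposited. They are whole numbers with no scaling. RSEM 1.2.3, DESeq2 and the build mm10 were used, per the submitters' processing notes, and which aligner and annotation release were used is not given in the sources here. The 38887 rows are named by Ensembl transcripts. They were matched to GENCODE M21 genes of GRCm38: 37776 rows matched 1 gene, 176 several and 935 none, holding 98.46%, 1.40% and 0.14% of the counts. RSEM splits multiply matching reads among transcripts, which makes the counts of close paralogs less certain.

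CPM was each count over the column total. For tests, filterByExpr (minimum count 10, minimum total 15) left 14363 rows, which were TMM-scaled and fitted in 1 model with edgeR 4.0.16 (glmQLFit with robust = TRUE, glmQLFTest, R 4.3.3), with a mean per group and no covariate. Rows with a Benjamini-Hochberg adjusted p under 0.05 over all rows were called, and the SE of a log2 fold change was that change over the square root of F. A fall or rise named in the text is such a call. Alternatives were DESeq2 1.42.0, limma-voom (limma 3.58.1), other size factors, other filters, a replicate block, other limits of the choice and leaving out libraries. Between the 6 h and untreated groups, libraries with the same number had deviations from the group mean that correlated at 0.178, 0.144 and 0.151, over 0.1 in all 3 pairs. By that measure the numbers may pair these libraries, which the labels do not state. The printed fold changes and calls are those without the block. With it, all 106 genes were still called lower at 6 h, and 3964 rows were, in place of 3686.

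The genes, the role groups and the gene lists were chosen with earlier results of these data known. Given in every library were the 12 genes with the lowest 6 h level among those with at least 5 CPM in untreated cells, the 10 with the highest untreated CPM, up to 3 from each list, and neighbours within 100 kb. The other genes are named so that all 106 are accounted for, and Ifit1, Cd14 and the other listed genes were chosen after their values were seen.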

Additional observations from a re-analysis of the deposited data

How the results depend on the processing

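The number of genes chosen followed the limits: 55 with a 6 h limit of 40%, 217 with 60%, 66 with a 2 h window of 0.83 to 1.2 and 170 with 0.67 to 1.5. Other scalings, floors, medians and single libraries left out gave 83 to 138 genes, and leaving out a replicate number gave 75 to 148. All 106 genes were called lower at 6 h against untreated under each of the 17 settings of the model, the replicate block included, as they were against 2 h. The choice of the genes from these same libraries favours such calls, so they are no support. Over all rows, 3041 to 3994 were called lower against untreated in those settings, and 2912 to 3818 against 2 h. Calls of these genes at 2 h against untreated were less stable. The 17 became 31 in the model that blocked on replicate number, and 6 to 39 when single libraries were left out. Over all rows, 3073 were called lower with the block and 2134 to 2849 with single libraries left out. Deviations of same-number libraries at 2 h and untreated correlated at 0.165, 0.0904 and 0.184. Of these, 1 was under the limit of 0.1, but all were positive. Those of different numbers were all negative, from -0.148 to -0.031. Deviations from a group mean cancel out within the group, so positive values in same-number pairs favour negative ones in the others. Whether the numbers pair the 2 h and untreated libraries was not tested, so both 17 and 31 are given. The causes of these shifts in the calls were not tested. At 6 h against untreated, the 748 log2 fold changes recomputed for 44 named genes kept their direction and call, which the choice likewise favours. Of 527 counts of pathway list genes called lower, 526 stayed within 1.5 times. The exception was the chromatin list, with 8 of 14 falls left without untreated replicate 3. At 2 h, in a check chosen after seeing the data, the 289 log2 fold changes of the 17 genes called lower kept their direction and 231 kept the call. Of the 17 genes, 5 were called under each setting. From 55 to 66 interferon-stimulated genes were called lower at 2 h, where 2134 to 3073 of all rows were. Rises within lists and counts of marker lists were not recomputed. Counts as low as 7 limit the precision of genes near the floor at 6 h. A p-value that missed the threshold at 2 h does not show equality.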
